A study of Mus musculus with 12 samples.

Results

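miR-132 and miR-212 are microRNAs cut from neighbouring hairpins of a single host transcript. They were followed here as every read assigned to mmu-mir-132 (64748 reads) or mmu-mir-212 (9667 reads) in 12 small RNA libraries of mouse retina. The set held 2 of the 1532 precursors seen and, since each hairpin gives a 5p and a 3p arm, 4 of 2144 mature arms. It comprised 74415 of 62878432 counted reads, as 584 distinct sequences, and 0 of these sequences had also been placed on another precursor.

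The libraries fall into 2 groups of 6. The tissue of the Keluoxin group came from mice given Keluoxin, a Chinese herbal capsule, and the other group is labelled model, taken here as mice not given it. All 12 samples carry the db/db genotype on a C57BL/KsJ background, in which a defective leptin receptor leaves the mice obese and diabetic. The strain labels in fact write a different number ahead of BL for each sample, which was read as C57BL in all of them. Non-diabetic mice were not analysed here, and the labels give no age, sex, dose or length of treatment. Retina is the tissue named by the labels, although the protocol describes RNA from an exosome pellet. Whether each sample is a separate animal is not stated, so p-values reflect the spread between samples only, part of which may be technical.

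Libraries held 1933375 (Keluoxin replicate 5) to 7892147 counted reads (model replicate 3). The 5 markers of photoreceptors and retinal neurons (miR-182, miR-183, miR-96, miR-124 and miR-9) were all detected. They summed to 357465 to 463767 RPM (reads scaled to the library's counted total) in Keluoxin libraries and 459718 to 480903 in model libraries. The lowest of these sums was that of Keluoxin replicate 4, which stands apart. Its 3 markers of lens, cornea and other epithelium (miR-184, miR-205 and miR-200c) reached 13023 RPM, against 67.8 to 195 in the other Keluoxin libraries and 62.0 to 402 in model libraries. Its 3 muscle markers (miR-1a, miR-133a and miR-206) summed to 2461 RPM, against 321 to 399 in the other Keluoxin libraries and 303 to 404 in model libraries. Its 2 mural markers were also the highest. They summed to 3282 to 9084 RPM in Keluoxin libraries and 2426 to 3638 in model libraries. The 2 erythroid markers summed to 179 to 639 RPM in Keluoxin replicates 3 to 6, 31.3 and 34.2 in the other 2 Keluoxin libraries, and 22.6 to 41.6 in model libraries. The endothelial marker miR-126a stood at 1084 to 1574 RPM in Keluoxin libraries and 1520 to 1870 in model libraries. The liver marker miR-122 stood at 3.10 to 40.3 RPM in Keluoxin libraries and 1.21 to 4.78 in model libraries. Both overlapped between the groups, as did the markers of pigment epithelium, leukocytes and glia. The part of these markers in the results was not tested. The members' levels, base differences and last-base changes are given with and without Keluoxin replicate 4. Other results use all 12 libraries unless stated.

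As background, transcription of the miR-132 and miR-212 host is switched on in neurons by the transcription factor CREB, after synaptic activity or neurotrophin signalling, and in the visual system the locus responds to light and visual experience. The 3p arms of both carry the same seed, the stretch of bases at positions 2 to 8 that pairs with target messenger RNAs, so they share most predicted targets. miR-132 is known for roles in dendrite growth and synaptic plasticity, with p250GAP among its described targets in rodent neurons. It has also been described in endothelial cells, where it targets p120RasGAP.

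The mature sequences are shown because the relation between the members lies in them. They are RefSeq sequences for GRCm38.p6, 5′ to 3′, with the seed in capitals, and all 4 arms matched an entry.
miR-132-3p: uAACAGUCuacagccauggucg
miR-212-3p: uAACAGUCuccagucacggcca
miR-132-5p: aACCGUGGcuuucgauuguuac
miR-212-5p: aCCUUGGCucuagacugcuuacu
The 3p arms are identical at 17 of 22 positions, including the first 9. Of 1679 RefSeq mature mouse miRNAs, only these 2 have the seed AACAGUC. The annotated 5p arms are identical at 9 of 22 positions and at 2 of 7 seed bases.

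The hairpins are printed to show where the arms lie, with the mature arms in capitals. Both were identical to the precursors the deposited files use.
Mir132: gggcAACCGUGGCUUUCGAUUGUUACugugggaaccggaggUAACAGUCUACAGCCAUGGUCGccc
Mir212: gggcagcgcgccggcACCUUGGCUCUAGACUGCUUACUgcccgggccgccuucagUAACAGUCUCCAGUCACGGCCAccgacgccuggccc
On GRCm38 (plus strand), Mir132 spans chr11:75173682-75173747 and Mir212 spans chr11:75173388-75173478, 203 bases apart. Both lie in intron 1 of the noncoding gene 1700016P03Rik (chr11:75172560-75177633), between its exon 1, which ends at 75172597, and its exon 2, which starts at 75173978. Neither hairpin overlaps an exon (0 overlaps). The arms lie at chr11:75173723-75173744 (miR-132-3p), chr11:75173686-75173707 (miR-132-5p), chr11:75173443-75173464 (miR-212-3p) and chr11:75173403-75173425 (miR-212-5p).

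The 2 hairpins favoured opposite arms. For miR-132 the 3p arm held 71.8% of the precursor's reads (46504 reads) and the 5p arm 28.2% (18244 reads). For miR-212 the 5p arm led with 68.3% (6600 reads), and the 3p arm held 31.7% (3067 reads). Among reads with the shared seed AACAGUC, miR-212-3p was the minor source. It made up 5.10, 5.98 and 7.33% of them in Keluoxin libraries and 4.49, 6.89 and 8.30% in model libraries (lowest, median and highest of 6 each).

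None of the 4 arms passed the test for a difference in level between the groups. miR-132-3p, the most abundant of them, stood at 463.3, 779.9 and 896.9 CPM in Keluoxin libraries and at 652.9, 726.8 and 1078 CPM in model libraries (lowest, median and highest; CPM are read counts scaled to a common library size with TMM factors, which correct for differences in make-up between libraries). The groups overlapped, with Keluoxin replicate 4 the lowest library and model replicate 2 the highest. The mean was 739.7 ± 158.1 CPM in Keluoxin and 769.2 ± 155.6 CPM in model (SD, n = 6 each), a log2 fold change of −0.06 (SE 0.17, edgeR quasi-likelihood test with Benjamini-Hochberg adjustment, adjusted p = 0.832). The 95% interval of that change runs from 0.742 to 1.25-fold.

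miR-132-5p, the partner strand from the same hairpin, stood at 187.0, 305.3 and 327.3 CPM in Keluoxin libraries and at 242.6, 306.9 and 334.2 CPM in model libraries. All Keluoxin libraries other than replicate 4 fell inside the model range. The log2 fold change was −0.03 (SE 0.14, edgeR adjusted p = 0.908), with an interval of 0.794 to 1.21-fold. miR-212-5p, the main arm of the second hairpin, stood at 55.7, 101.6 and 117.9 CPM in Keluoxin libraries and at 91.7, 115.9 and 129.3 CPM in model libraries. Its log2 fold change was −0.25 (SE 0.18, edgeR adjusted p = 0.311), with an interval of 0.646 to 1.10-fold. miR-212-3p, the scarcest arm, stood at 36.7, 45.45 and 58.1 CPM in Keluoxin libraries and at 44.2, 54.2 and 66.0 CPM in model libraries. Its log2 fold change was −0.22 (SE 0.16, edgeR adjusted p = 0.337), with an interval of 0.670 to 1.10-fold. The groups overlapped for both miR-212 arms.

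The count of 0 called members stands beside 17.3% of all 811 arms tested in the same fit (140 arms, 9.25% higher and 8.01% lower in Keluoxin), and 13.7% of the 511 annotated arms. At an unadjusted p under 0.05 the count of members was also 0, against 34.8% of the 811 arms (282), and DESeq2 called 0 of the 4, against 17.5% of the 1345 arms it gave an adjusted p (236). The count of 140 moved with single libraries. It was 244 without model replicate 1, and 86, 72 and 93 without model replicates 3, 4 and 5. On the leading principal component of log2 CPM (52.6% of the variance) Keluoxin libraries scored −19.0 to −5.81, and model libraries 9.13 to 36.7 apart from model replicate 1, which scored −10.7, within the Keluoxin range. The groups did not overlap for 7.77% of all arms and for 0 of the 4 members. Scaling moved the values. With total counted reads the median change of all arms was 0.22 on the log2 scale, against 0.03 with TMM, and the split of calls became 89 higher and 26 lower, against 75 higher and 65 lower with TMM. The members then stood at 0.11 (miR-132-3p), 0.13 (miR-132-5p), −0.04 (miR-212-3p) and −0.10 (miR-212-5p). With upper quartile scaling the median was −0.23, the split 72 higher and 110 lower, and the members stood at −0.31, −0.29, −0.48 and −0.52 in the same order. No arm of the 4 was called under either scaling. In bulk tissue, fewer cells of a type and less RNA per cell cannot be told apart.

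**Figure D1:**
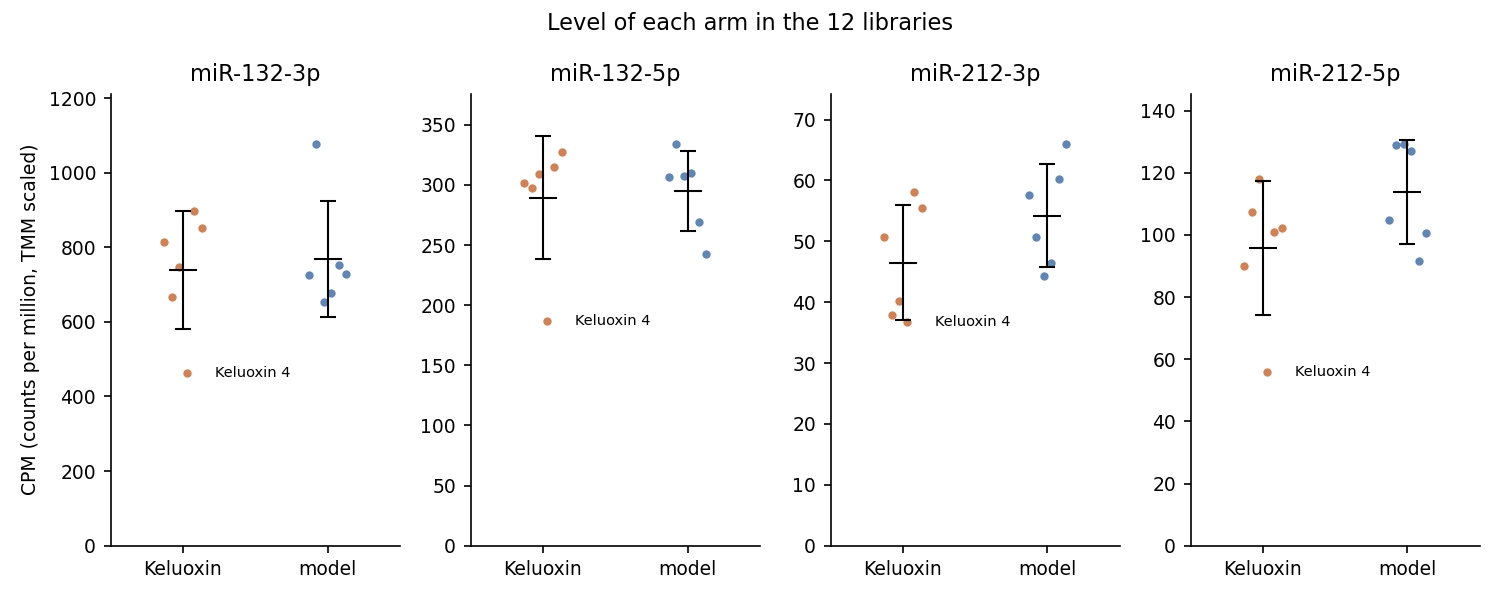
Level of each arm in CPM (y axis, from 0) in the 6 Keluoxin (left) and 6 model libraries (right), 1 point per library, with the mean and SD as a bar. Keluoxin replicate 4 is the lowest of the 12 libraries in every panel, and the 2 groups overlap for each arm.

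In CPM, Keluoxin replicate 4 was the lowest of the 12 libraries for all 4 arms. Its TMM factor, 1.30, was the highest of the 12, which lowers its CPM. In RPM, which does not use that factor, the lowest miR-132-5p library was a model library. It stood at 222 RPM, against 243 RPM in the lowest Keluoxin library. Without Keluoxin replicate 4, the log2 fold changes were 0.05 (miR-132-3p), 0.07 (miR-132-5p), −0.16 (miR-212-3p) and −0.14 (miR-212-5p). Again none was called, against 15.6% of 807 arms. The part of its epithelial and muscle miRNAs in these levels was not tested. The spread between libraries was wider than counting error alone gives. For miR-132-3p the coefficient of variation was 21.4% in Keluoxin and 20.2% in model, against 1.77% and 1.62% from counting. For miR-212-3p it was 20.2% in Keluoxin and 15.6% in model, against 7.06% and 5.97% from counting.

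The balance between the hairpins and between their arms was also compared, since such ratios do not depend on library scaling. For each 100 reads of miR-132-3p there were 11.05, 12.01 and 16.1 reads of miR-212-5p in Keluoxin libraries and 11.96, 14.1 and 19.8 in model libraries (mean log2 difference −0.21, exact two-sided permutation test over all assignments of the labels, p = 0.229, adjusted over 2 ratios p = 0.305). For miR-212-3p there were 5.38, 6.36 and 7.91 reads in Keluoxin libraries and 4.71, 7.41 and 9.06 in model libraries (−0.16, exact permutation test, p = 0.305 before and after adjustment). The log2 ratio of 5p to 3p reads of miR-132 averaged −1.34 in Keluoxin and −1.37 in model (difference 0.03, SE 0.15, 95% interval −0.30 to 0.35, limma adjusted p = 0.938). For miR-212 it averaged 1.03 in Keluoxin and 1.07 in model (−0.04, SE 0.24, interval −0.56 to 0.48, limma adjusted p = 0.936). Neither arm ratio was called, against 15% of the 147 precursors tested.

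Across libraries, the levels of some arms were correlated. Over the 12 libraries, log2 CPM of miR-132-5p and miR-212-5p had a Pearson r of 0.84 (permutation p = 0.0059, adjusted over 6 pairs p = 0.0193) and a Spearman rho of 0.62 (permutation p = 0.0343, adjusted p = 0.121). Within groups r was 0.93 in Keluoxin and 0.76 in model libraries. For miR-132-3p and miR-132-5p, r was 0.77 (permutation p = 0.0064, adjusted p = 0.0193) and rho 0.61 (permutation p = 0.0404, adjusted p = 0.121), with r of 0.94 within Keluoxin and 0.37 within model. Both relations rest on a few libraries. Without Keluoxin replicate 4 and model replicate 6 the first r was 0.52 (permutation p = 0.119), and without Keluoxin replicate 4 and model replicate 2 the second was 0.23 (permutation p = 0.546). The other 4 pairs had r from 0.16 to 0.58 over the 12 libraries (permutation test, adjusted p from 0.106 to 0.657), and some turned negative in a subset. For miR-212-3p and miR-212-5p, r was 0.33 within Keluoxin and −0.89 within model libraries (exact permutation p = 0.663 and 0.0458, unadjusted), and −0.66 without Keluoxin replicates 2 and 4 (permutation p = 0.0417, unadjusted). For miR-132-5p and miR-212-3p, r was 0.62 within Keluoxin and −0.77 within model (exact permutation p = 0.0639 and 0.0792, unadjusted). For miR-132-3p and miR-212-5p, r was 0.78 within Keluoxin and 0.16 within model, and −0.62 without Keluoxin replicate 4 and model replicate 2. For miR-132-3p and miR-212-3p, it was 0.84 within Keluoxin and 0.095 within model. All points share their library's scaling factor.

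Most miR-132-5p reads did not begin where the annotated arm does. Only 20.2% of its reads started at position 5 of the precursor, the first base of the RefSeq mature sequence, and 79.7% started 1 base later, at position 6 (14542 of 18244 reads). The most frequent read with no difference from the precursor is printed to show the shift, with its bases 2 to 8 in capitals.
miR-132-5p, most frequent read: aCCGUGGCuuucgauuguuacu
The later start turns the seed ACCGUGG into CCGUGGC, which 0 of the 1679 RefSeq mature mouse miRNAs have. It also lines the arm up with miR-212-5p (seed CCUUGGC). The most frequent reads of these 5p arms are identical at 14 of 22 positions and at 6 of 7 seed bases, against 9 and 2 for the annotated sequences. The share of miR-132-5p reads starting at position 6 was 80.7, 81.6 and 85.1% in Keluoxin libraries and 76.3, 77.5 and 83.4% in model libraries, so the later start was the main form in all 12. The mean start lay 0.035 nt further downstream in Keluoxin (SE 0.012, limma adjusted p = 0.151) and was not called. Of all 383 arms tested for read start, 0% were called, and 68 had an unadjusted p under 0.05.

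The other 3 arms began at their annotated base. For miR-132-3p 95.8% of reads started at position 42, 3.14% at position 43 and 1.06% at position 44. For miR-212-3p 99.2% started at position 56, and for miR-212-5p 95.9% started at position 16 and 4.11% at position 17. Their adjusted p for a difference in start between the groups was 0.328, 0.986 and 0.760 in that order (limma).

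Read lengths centred on 22 nt for miR-132-3p and 23 nt for miR-212-5p. Mean length was 22.03 nt in Keluoxin and 22.03 nt in model for miR-132-3p, 21.36 and 21.26 nt for miR-132-5p, 21.66 and 21.58 nt for miR-212-3p, and 22.83 and 22.78 nt for miR-212-5p (Keluoxin before model in each pair, n = 6 each). None of the 4 was called (limma adjusted p = 0.990, 0.259, 0.524 and 0.620), against 8.09% of the 383 arms tested. Within miR-132-5p, reads of 21 nt made up 14.3, 14.4 and 16.2% in Keluoxin libraries and 21.1, 23.2 and 24.5% in model libraries, with no overlap. Reads of 22 nt made up 62.0, 64.0 and 69.3% in Keluoxin libraries and 51.2, 54.9 and 63.5% in model libraries, and the groups overlapped through model replicate 6. Of the 18 length classes from 20 to 24 nt that hold at least 1% of a member arm, only that 21 nt class showed no overlap, against 11.6% of the 1402 such classes of all arms.

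**Figure D2:**
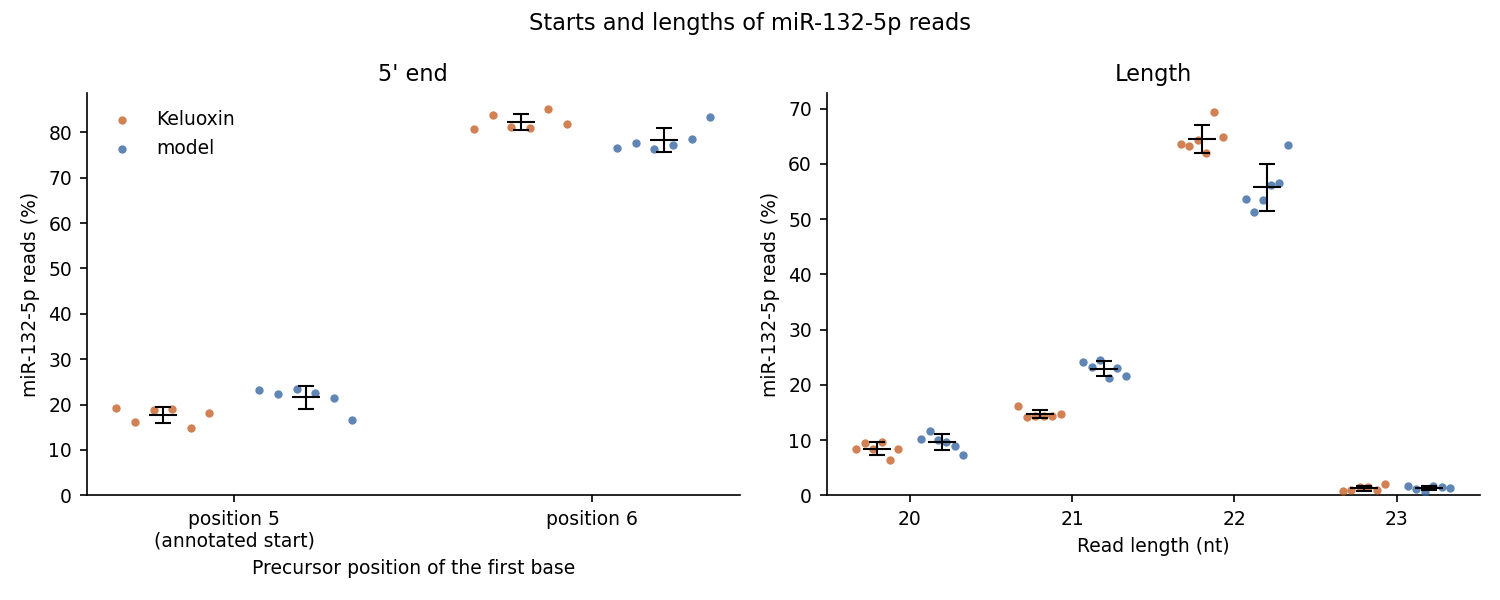
Share of miR-132-5p reads (y axis, %) by first base on the precursor (left panel) and by read length (right panel), 1 point per library with Keluoxin left of model, and the mean with SD as a bar. At least 76.3% of reads start at position 6 in every library, and the 21 nt share lies between 14.3 and 16.2% in Keluoxin libraries, below every model library.

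Many reads differed from the precursor by 1 base, the most that the files allow, and the share was higher in Keluoxin for all 4 arms. For miR-132-3p it was 60.3, 62.5 and 64.1% in Keluoxin libraries and 50.9, 54.3 and 56.0% in model libraries, with no overlap (log2 odds difference 0.51, SE 0.07, limma adjusted p = 0.000164). For miR-132-5p it was 42.6, 45.2 and 50.1% in Keluoxin libraries and 35.6, 38.1 and 41.6% in model libraries, again with no overlap (0.42, SE 0.09, limma adjusted p = 0.00213). For miR-212-3p it was 53.6, 61.3 and 64.4% in Keluoxin libraries and 51.5, 53.2 and 58.3% in model libraries (0.36, SE 0.13, limma adjusted p = 0.0269). For miR-212-5p it was 36.6, 41.9 and 48.1% in Keluoxin libraries and 32.0, 35.6 and 42.3% in model libraries (0.34, SE 0.14, limma adjusted p = 0.0476). The groups overlapped for both miR-212 arms, and leaving out 1 library ended the call for miR-212-3p in 6 of 12 cases and for miR-212-5p in 8 of 12. Without Keluoxin replicate 4 all 4 arms kept an adjusted p under 0.05, and 66.3% of the 383 arms tested were then called.

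This rise was common to most arms measured. Among the 383 arms that reached 50 reads in each of the 12 libraries, 63.4% were called, 59.3% of the 383 higher in Keluoxin, and the median log2 odds difference was 0.42. The groups did not overlap for 30.8% of the arms, and for 2 of the 4 members. The members' calls are therefore near the background.

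**Figure D3:**
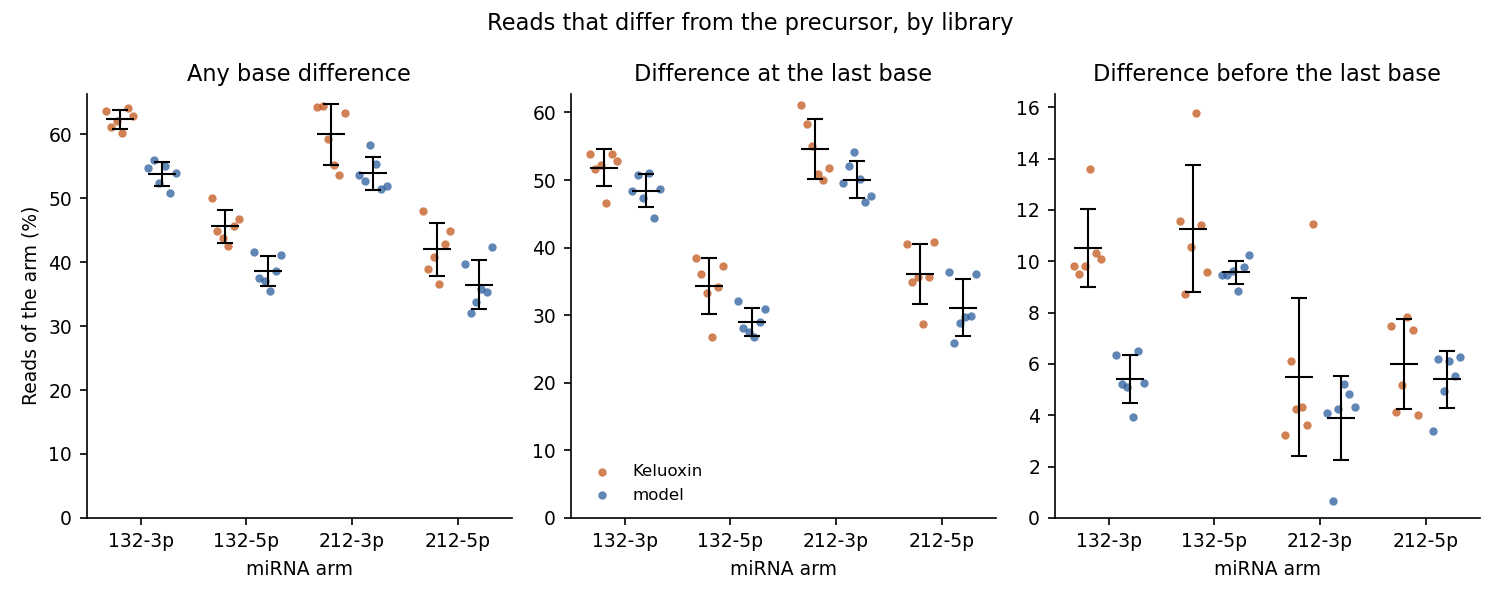
Share of reads (y axis, % of the arm's reads, from 0) that differ from the precursor anywhere, at the last base, or before it, for the 4 arms, 1 point per library with Keluoxin left of model, and the mean with SD as a bar. The 2 groups of miR-132-3p do not overlap in the panels for any difference (60.3 to 64.1% in Keluoxin, 50.9 to 56.0% in model) and for differences before the last base (9.50 to 13.6% in Keluoxin, 3.95 to 6.49% in model).

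Most of these differences sat on the last base of the read. The most frequent forms of the 3p arms are printed to show them, in DNA letters as deposited, with the changed base in capitals. For miR-132-3p they were the following.
annotated 22-mer: taacagtctacagccatggtcg
23-mer with a changed last base: taacagtctacagccatggtcgT
22-mer with a changed last base: taacagtctacagccatggtcA
The annotated form held 27.2% of miR-132-3p reads, the 23-mer ending in T (a U in RNA) 18.4% and the 22-mer ending in A 11.2%. The annotated form made up 20.7, 22.5 and 24.7% in Keluoxin libraries and 29.1, 30.5 and 33.5% in model libraries, with no overlap. The 23-mer ending in T made up 14.9, 16.2 and 21.1% in Keluoxin libraries and 16.4, 18.8 and 24.2% in model libraries, and the groups overlapped. The 22-mer ending in A made up 10.9, 12.2 and 14.2% in Keluoxin libraries and 8.64, 10.2 and 11.3% in model libraries, also overlapping. For miR-212-3p the same kinds of form were seen.
annotated 22-mer: taacagtctccagtcacggcca
21-mer with a changed last base: taacagtctccagtcacggcT
23-mer with a changed last base: taacagtctccagtcacggccaT
They held 15.1, 11.1 and 8.28% of miR-212-3p reads. Of the 8 most frequent sequences of each arm, 7 of 32 showed no overlap between the groups, 3 higher and 4 lower in Keluoxin, against 12.7% of 3063 such sequences over all arms.

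The 3p arms were among those most often changed at the last base. By that share, averaged over the 12 libraries, miR-212-3p ranked 16 and miR-132-3p ranked 22 from the highest of 383 arms, whose median was 29.8%. miR-132-5p ranked 163 and miR-212-5p ranked 134. A change to U was the most frequent kind on the 3p arms. It was found on 25.996 ± 1.9% of miR-132-3p reads in Keluoxin and 26.7 ± 3.1% in model, and on 29.1 ± 4.2% of miR-212-3p reads in Keluoxin and 29.3 ± 4.7% in model (SD, n = 6 each). A change to A followed, with 18.6 ± 1.6% of miR-132-3p reads in Keluoxin and 17.1 ± 1.4% in model. On the 5p arms, changes to U were scarcer. They were found on 3.93 to 4.46% of miR-132-5p reads in Keluoxin libraries and 5.62 to 7.08% in model libraries, with no overlap. For miR-212-5p they ranged from 2.16 to 4.38% in Keluoxin and 3.84 to 5.02% in model libraries, overlapping. Changes to C were found on 10.1 to 14.8% of miR-132-5p reads in Keluoxin libraries and 6.25 to 9.42% in model libraries, again with no overlap. For miR-212-5p they ranged from 10.5 to 17.7% in Keluoxin and 7.11 to 11.9% in model libraries, overlapping. The groups did not overlap for 1 of the 4 members in either kind of change. Over the 383 arms, they did not overlap for 11.7% in changes to U and 12.5% in changes to C.

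The share of reads with a changed last base was not called for any of the 4 arms. It was 46.7, 52.55 and 53.8% for miR-132-3p in Keluoxin libraries and 44.4, 48.5 and 51.1% in model libraries (log2 odds difference 0.20, SE 0.10, limma adjusted p = 0.154). The adjusted p was 0.0689 for miR-132-5p, 0.141 for miR-212-3p and 0.143 for miR-212-5p (limma), where 25.3% of the 383 arms were called. The groups overlapped for all 4 arms, and did not for 7.05% of the 383. At an unadjusted p under 0.05 the count was 1 of the 4, miR-132-5p, against 45.4% of the 383 (174 arms). Keluoxin replicate 4 decides this count. Without it, the calls were miR-132-3p (0.26, limma adjusted p = 0.0179), miR-132-5p (0.45, limma adjusted p = 0.00227) and miR-212-5p (0.42, limma adjusted p = 0.0307). Without it, 48.8% of the 383 arms were called.

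Differences before the last base separated the groups for miR-132-3p. They were found on 9.50, 9.96 and 13.6% of its reads in Keluoxin libraries and on 3.95, 5.23 and 6.49% in model libraries, with no overlap (log2 odds difference 1.05, SE 0.15, 95% interval 0.72 to 1.38, limma adjusted p = 0.000364). Keluoxin replicate 4 was the highest, and the next Keluoxin library stood at 10.3%. Leaving out any 1 library gave a difference of 0.96 to 1.11 (limma adjusted p from 0.00041 to 0.0013). For miR-132-5p the shares were 8.72, 10.99 and 15.8% in Keluoxin libraries and 8.85, 9.55 and 10.2% in model libraries (0.24, limma adjusted p = 0.176). For miR-212-3p they were 3.21, 4.29 and 11.4% in Keluoxin libraries and 0.643, 4.28 and 5.20% in model libraries (0.61, limma adjusted p = 0.289), and for miR-212-5p 4.015, 6.26 and 7.84% in Keluoxin libraries and 3.39, 5.82 and 6.25% in model libraries (0.14, limma adjusted p = 0.609). Here too the background was high. Of the 383 arms, 59.5% were called, with a median log2 odds difference of 0.57, and 30.3% showed no overlap.

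**Figure D4:**
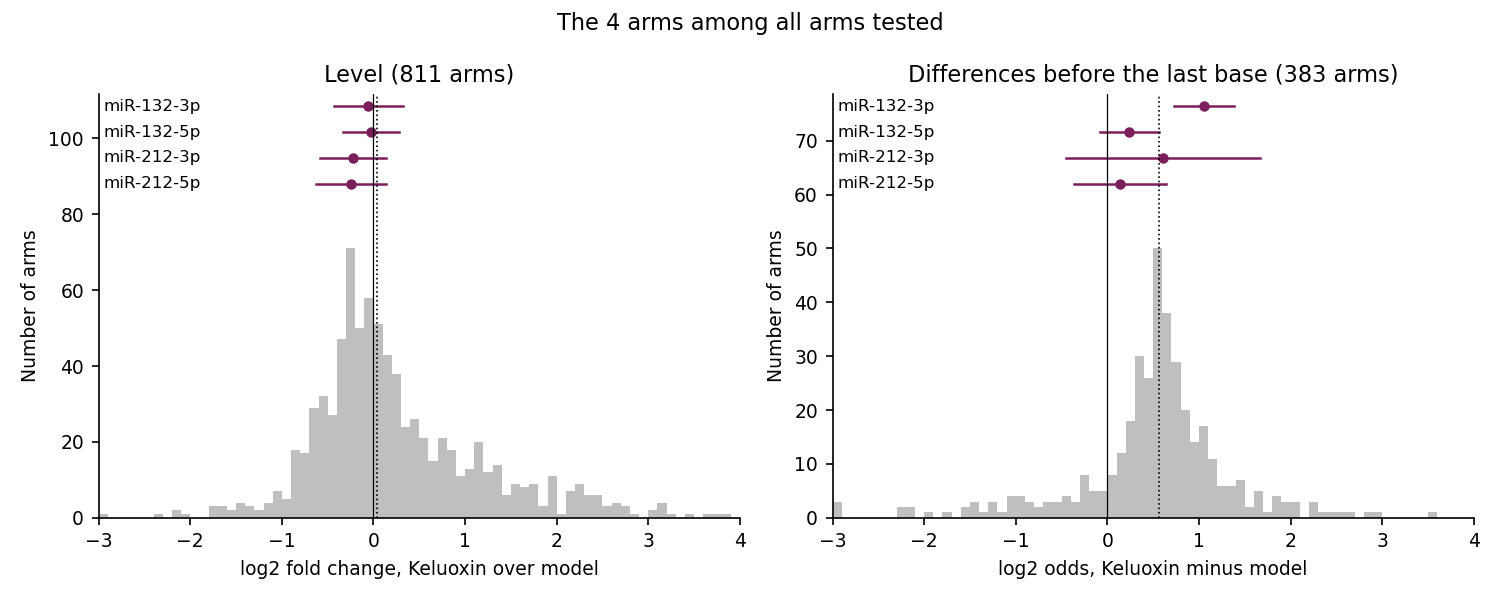
Number of arms (y axis) by log2 fold change in level (left panel, 811 arms) and by log2 odds difference for base differences before the last base (right panel, 383 arms), Keluoxin against model, with values beyond the axis put in the end bins. Points with lines are the 4 members with their 95% intervals, and the dotted line is the median of all arms (0.03 and 0.57); only miR-132-3p in the right panel has an interval wholly above that median (0.72 to 1.38).

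Along miR-132-3p, the differences that separated the groups lay towards the 3′ end. In the seed they were found on 0.471, 0.739 and 1.23% of its reads in Keluoxin libraries and on 0.662, 1.02 and 1.35% in model libraries, overlapping. From position 16 on they were found on 5.67, 7.13 and 9.49% in Keluoxin libraries and on 1.89, 2.60 and 3.26% in model libraries, with no overlap. Over all 383 arms the median was 0.580% in Keluoxin and 0.623% in model for the seed, and 5.73% in Keluoxin and 2.80% in model from position 16 on, where 33.4% of arms were higher in Keluoxin with no overlap. The stretches were chosen after the values were seen. As examples, with positions counted from 1 at the first base of miR-132-3p, T20G was found on 0.860, 1.39 and 2.01% of covering reads in Keluoxin libraries and on 0.0619, 0.347 and 0.668% in model libraries. A16G was found on 0.253, 0.886 and 1.51% of covering reads in Keluoxin libraries and on 0.0510, 0.196 and 0.228% in model libraries. Both were picked for print after their values were seen, so they illustrate the stretch and carry no count or test.

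**Figure D5:**
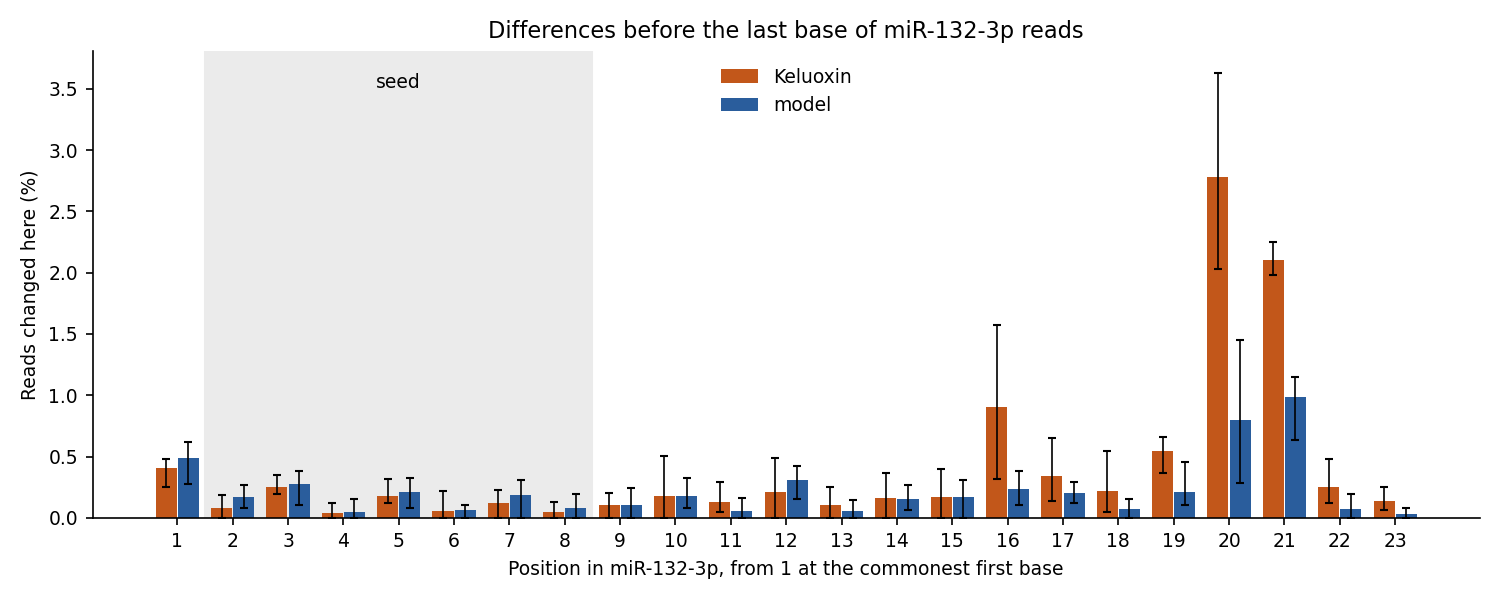
Share of miR-132-3p reads (y axis, %) with a base difference at each position before the last base of the read, counted from 1 at the commonest first base. Bars are the mean of 6 libraries, Keluoxin left of model, with lines from the lowest to the highest library. The shaded stretch is the seed. The groups do not overlap at positions 20 and 21 (1.98 to 3.63% in Keluoxin, 0.286 to 1.45% in model over the 2 positions). The same held at position 18 of miR-132-5p, not shown (0.825 to 1.88% in Keluoxin, 0.231 to 0.609% in model). Shares by position were not taken over all arms.

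The files list only sequences read at least 2 times, and the shallowest library was Keluoxin replicate 5. It held 1698 reads of miR-132-3p, of which 64.1% carried a base difference, the highest of the 12 libraries. The part of depth in the differences between the groups was not tested.

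miR-132-5p carried an A-to-G change at the base where most of its reads start. The change, A6G counted from 1 at the first base of the precursor, was found on 3.62% of the reads that cover it. It was found on 2.86% of reads starting at position 6 (416 of 14542, Wilson 95% interval 2.60 to 3.14%) and on 6.62% of reads starting at position 5 (244 of 3686, interval 5.86 to 7.47%). These intervals cover counting error only, since reads amplified by PCR without molecular identifiers are not independent molecules. By library the share was 2.51, 3.60 and 5.10% in Keluoxin and 3.14, 3.78 and 4.18% in model, so the groups overlapped. The first-base A-to-G share was compared over the 70 arms with reads that begin on an A at the arm's commonest start position. That of miR-132-5p, 2.86%, was the highest (rank 1), against a median of 0.141%. Both that share and the next are taken over the reads that begin on an A at that position. Copies of a precursor were given the same position, so the 70 include arms with few such reads, such as miR-16-5p (23 reads) and miR-30c-5p (68 reads). An A-to-C change of the first base was found on 1.40% of such miR-132-5p reads (rank 5) and on 1.61% of such miR-212-5p reads (rank 4), against a median of 0.197%.

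The annotated arms whose pattern over the 12 libraries was most like that of miR-132-3p were miR-135b-5p, miR-139-5p, miR-21a-5p, miR-181b-5p and miR-423-3p. Likeness was the root mean squared difference of log2 CPM after each arm's mean was subtracted. It was 0.161 for miR-135b-5p, 0.192 for miR-139-5p, 0.198 for miR-21a-5p, 0.201 for miR-181b-5p and 0.207 for miR-423-3p, against a median of 0.480 over 507 annotated arms. Among the members it was 0.182 for miR-132-5p, 0.258 for miR-212-3p and 0.275 for miR-212-5p. The arms most like miR-212-5p were miR-541-5p (0.134), let-7j-5p (0.146) and miR-485-3p (0.151), against a median of 0.461. Among the members its likeness was 0.175 to miR-132-5p, 0.275 to miR-132-3p and 0.377 to miR-212-3p, from its own hairpin. Of these 8 arms outside the member set, 0 were called between the groups by edgeR, against 17.3% of all 811 arms. Of them 1, let-7j-5p, had an unadjusted p under 0.05 (log2 fold change −0.41, edgeR adjusted p = 0.141), against 34.8% of the 811. The arms were chosen for a pattern like that of uncalled members in the same libraries, so these counts largely follow from the choice. Nearly all reads counted for let-7j-5p differed from its precursor before the last base (mean log2 odds 5.68 in Keluoxin and 7.83 in model).

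Other miRNAs known to respond to neuronal activity or light were read from a list of 28 names that gave 52 tested arms, the members not among them. Of these, 11 (21.2%) were called, 2 higher and 9 lower in Keluoxin, where 17.3% of all 811 arms were called. The median log2 fold change was −0.17 over the list and 0.03 over all arms. The 2 higher arms were miR-181c-5p, at 156.9 ± 15.96 CPM in Keluoxin and 115.1 ± 10.4 CPM in model (log2 fold change 0.45, SE 0.10, edgeR adjusted p = 0.0161), and miR-29a-3p, a regulator of collagen genes (0.31, SE 0.09, edgeR adjusted p = 0.0316). miR-182-5p, from the sensory cluster that marks photoreceptors, stood at 120010 ± 28354 CPM in Keluoxin and 183130 ± 12547 CPM in model (−0.61, SE 0.15, edgeR adjusted p = 0.0210), and its neighbour miR-183-3p also fell (−0.72, edgeR adjusted p = 0.00796). Their neighbour miR-96-5p, chosen for mention after its values were seen, stood the other way, at 52222 ± 5855 CPM in Keluoxin and 42887 ± 3801 CPM in model (0.28, SE 0.09, edgeR adjusted p = 0.0539), and was not called. As a retinal marker, miR-96 made up 51515 to 63992 RPM in Keluoxin libraries and 35654 to 46463 in model libraries, with no overlap. miR-183 made up 100043 to 170486 RPM in Keluoxin libraries and 140377 to 154974 in model libraries, overlapping. Keluoxin replicate 4 was the lowest library for miR-182 (91910 RPM) and for miR-183 (100043 RPM). miR-134-5p, which acts on dendritic spines through Limk1, averaged 151.4 ± 8.0 CPM in Keluoxin and 204.8 ± 23.97 CPM in model (−0.44, SE 0.10, edgeR adjusted p = 0.0161).

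Further arms of the large imprinted Dlk1-Dio3 cluster, which also holds miR-134, were called lower in Keluoxin. These were miR-379-5p (log2 fold change −0.75, edgeR adjusted p = 0.00515), miR-379-3p (−0.95, adjusted p = 0.0161) and miR-485-5p (−0.48, adjusted p = 0.0369). Other tested arms of the list from this cluster, among them miR-485-3p, were not called. The remaining lower arms were miR-125b-5p (−0.53, edgeR adjusted p = 0.0121), miR-335-3p (−0.60, adjusted p = 0.0227) and miR-219a-1-3p (−1.18, adjusted p = 0.0269), the last at 1.09 ± 0.58 CPM in Keluoxin and 2.30 ± 0.46 CPM in model. Besides miR-182-5p, the most abundant arms of the list were miR-183-5p (−0.19, edgeR adjusted p = 0.438) and miR-9-5p (−0.24, adjusted p = 0.246), which were not called. The calls depended on scaling, with 0 higher and 12 lower under upper quartile scaling and 4 higher and 5 lower under total counted reads. Some names were in view from earlier results of these data, so the list is not independent evidence.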

How the data were processed

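The members and lists were chosen with earlier results of these data known. Per the labels' protocols, libraries were made with the NEBNext small RNA kit from 1 µg of total RNA and inserts of 15 to 35 nt were selected. Tools named in the submitters' processing notes are bcl2fastq, cutadapt, Bowtie and Novoalign, with neither version nor role. No source used here gives the build or miRBase release.

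Each deposited table lists distinct sequences of 15 to 51 nt with whole read counts, at least 2 reads each and at most 1 differing base, and their precursors. The deposited counts are not normalized, and tag names hold the count before division among precursors. Other deposited columns are lengths, numbers of differences and positions counted with 5 added, per the file headers and values, and 5 was subtracted here.

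Arms were assigned by the side of the precursor's middle, and each sequence was counted once per arm by its undivided reads. For the tests, reads of a sequence placed on several arms were divided equally among those arms. The no-overlap shares of base differences, lengths and sequences used undivided reads. Member sequences had no other placement, so both ways of counting are the same for them. Levels were tested with edgeR 4.0.16 (TMM, filterByExpr, quasi-likelihood) in R 4.3.3, on 811 arms and all 12 libraries. limma 3.58.1 tested log2 5p over 3p reads (0.5 added, arms with 10 reads or more in 6 libraries), and read length, start and log2 odds of a base difference in arms reaching 50 reads in each library. Calls are Benjamini-Hochberg adjusted p under 0.05. The split into last-base and earlier changes was added after seeing the data. Ratios of members used exact permutation tests (SciPy 1.17.1, Python 3.11.15), and DESeq2 1.42.0 was an alternative. The tests were checked on simulated data. Named arms were the 4 members, the 5 annotated arms most like miR-132-3p and 3 most like miR-212-5p, and, of the activity list, every called arm and the 3 most abundant. Sequences are from RefSeq, and gene positions from GENCODE M21 (GRCm38).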

Additional observations from a re-analysis of the deposited data

Results flagged for a closer look

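Of 56 sets of 6 libraries (an arm, a measure and a group), 12 had a library standing apart by Dixon's criterion on its gap to the nearest other library, where chance flags about 1 set in 20. Keluoxin replicate 4 accounted for 6 of them. In it miR-132-5p stood at 187 CPM (next 297), miR-132-3p reads averaged 21.8 nt (next 22.01) with 46.7% changed at the last base (next 51.7%) and 13.6% changed before it (next 10.3%), and miR-212-5p reads averaged 22.6 nt (next 22.8) with 91.9% at the commonest start (next 95.9%). The same library held 13023 RPM of the epithelial markers, whose part in these values was not tested. In Keluoxin replicate 6, 11.4% of miR-212-3p reads were changed before the last base (next 6.11%), and in Keluoxin replicate 1, 98.0% of miR-212-3p reads lay at the commonest start (next 99.3%). In model replicate 2, miR-132-3p stood at 1080 CPM (next 753.8), and 0.643% of miR-212-3p reads were changed before the last base (next 4.10%). In model replicate 6, 83.4% of miR-132-5p reads lay at the commonest start (next 78.5%) and miR-212-5p reads averaged 22.9 nt (next 22.8).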

How the results depend on the processing

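Of 500 alternatives over all results, 442 kept the direction and the side of the threshold, 31 turned the direction, 15 lost a call, 4 gained one and 8 moved a count; every turned value was uncalled before and after. Under total counted reads the log2 fold change was 0.11 for miR-132-3p and 0.13 for miR-132-5p. With annotated precursors only it was 0.030 and 0.063, with 68 of 508 arms called (13.4%). With exact reads only, miR-132-5p stood at 0.029, the miR-212 arm ratio at 0.033, the miR-132-3p length difference at 0.028 nt and the miR-212-3p start difference at −0.00090 nt. DESeq2 called 236 of the 1345 arms it tested (17.5%), against 140 of 811 (17.3%), and 6 arms of the activity list were called with no filter against 11. With a minimum of 20 reads, the base changes of miR-212-5p (0.34) had an adjusted p of 0.0555. The cause of these shifts was not tested.

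Leaving out 1 library gave 72 to 244 called arms (244 without model replicate 1, and 86, 72 and 93 without model replicates 3, 4 and 5) and 7 to 14 of the list (7 without model replicate 4). The log2 ranges were −0.13 to 0.058 and −0.12 to 0.069 for the levels of miR-132-3p and miR-132-5p, −0.039 to 0.082 and −0.15 to 0.052 for the arm ratios of miR-132 and miR-212, and 0.31 to 0.44 and 0.27 to 0.41 for the base changes of miR-212-3p and miR-212-5p. Length of miR-132-3p ranged from −0.020 to 0.035 nt, and start from −0.0025 to 0.0036 nt for miR-212-3p and −0.0018 to 0.0081 nt for miR-212-5p.

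Samples of both groups share replicate numbers, but the deviations of same-numbered libraries correlated at 0.04 to 0.24, not all above 0.1, and 1 of 6 numbers had its best match in its own number, so the number was taken only as a name. With the replicate block 137 arms were called, the 4 levels stayed uncalled (−0.07, −0.04, −0.23 and −0.27), and the last-base changes of miR-132-5p (0.35) reached an adjusted p of 0.0432. Depth limits miR-212-3p most, with 110 to 332 reads per library.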
